A study of Rattus norvegicus with 4 samples.

Results

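The 8 genes described here encode the enzymes of the urea cycle and of ammonia handling in rat liver, and were taken from the tables by gene symbol. They were *Nags*, *Cps1*, *Otc*, *Ass1*, *Asl*, *Arg1*, *Glul* and *Glud1*, 8 of the 16999 named genes analysed. Gene expression was measured by sequencing of total RNA from the livers of wild type rats that inhaled sevoflurane (4.5%) or desflurane (6%), halogenated gases used for general anesthesia. For each agent, rats were decapitated at loss of consciousness (0 h, the controls) or after 6 h of anesthesia, which made 4 groups named by agent and time. All 4 groups, controls included, had inhaled an anesthetic, and rats without any agent were not analysed here. The sources used here give neither the strain, sex and age of the rats nor the number of animals behind a library. Each group held 1 library, so a difference between libraries has no replicate error. Control and anesthetized livers were also collected 6 h apart, so the effects of anesthesia and of the time of day cannot be told apart in any comparison of 6 h with 0 h. In bulk liver, fewer cells of a type and less RNA per cell cannot be told apart either.

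The urea cycle is how the liver turns ammonia, released when amino acids are broken down, into urea for excretion. The cycle opens in the mitochondrion, where *Cps1* makes carbamoyl phosphate from ammonia and bicarbonate and *Otc* joins it to ornithine to give citrulline, and it continues in the cytosol, where *Ass1* adds aspartate, *Asl* releases fumarate and arginine, and *Arg1* splits arginine into urea and ornithine. *Nags* makes N-acetylglutamate, without which *Cps1* is inactive. These enzymes are abundant in hepatocytes around the portal vein, whereas *Glul*, glutamine synthetase, is made by the few layers of hepatocytes around the central vein and captures ammonia that escaped the cycle. *Glud1*, glutamate dehydrogenase, interconverts glutamate with ammonia and 2-oxoglutarate. The cycle's enzymes are known to be induced by glucagon, glucocorticoids, fasting and a high protein diet.

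The promoters of 4 of these genes are shown first, chosen for the order of their values. *Cps1*, *Ass1* and *Asl* had both 6 h libraries above both controls, as did 23.0% of all genes tested. *Otc*, whose product works between those of *Cps1* and *Ass1*, had both below, as did 28.0%. The change of *Otc* did not pass the test described below. Each sequence holds 250 bases before and 50 bases after the gene start in RefSeq on build GRCr8, printed 5′ to 3′ on the strand of the gene, and capitals mark the motif matches described next. Windows were found for 7 of the 8 genes (all but *Arg1*), and *Glul* had 2 of them.
Cps1 (chr9:76063613-76063912, plus strand): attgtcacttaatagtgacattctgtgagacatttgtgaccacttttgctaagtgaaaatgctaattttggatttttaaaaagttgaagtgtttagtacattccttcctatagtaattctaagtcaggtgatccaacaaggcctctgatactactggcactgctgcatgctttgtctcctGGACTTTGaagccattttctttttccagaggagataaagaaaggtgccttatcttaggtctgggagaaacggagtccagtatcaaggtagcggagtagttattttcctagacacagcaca
Otc (chrX:15202424-15202723, minus strand): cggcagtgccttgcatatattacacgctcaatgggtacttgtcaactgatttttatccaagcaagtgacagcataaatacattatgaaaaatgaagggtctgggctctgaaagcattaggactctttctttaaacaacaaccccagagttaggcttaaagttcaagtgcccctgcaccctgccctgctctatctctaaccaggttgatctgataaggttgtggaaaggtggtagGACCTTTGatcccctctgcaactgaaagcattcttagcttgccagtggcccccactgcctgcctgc
Ass1 (chr3:35149480-35149779, plus strand): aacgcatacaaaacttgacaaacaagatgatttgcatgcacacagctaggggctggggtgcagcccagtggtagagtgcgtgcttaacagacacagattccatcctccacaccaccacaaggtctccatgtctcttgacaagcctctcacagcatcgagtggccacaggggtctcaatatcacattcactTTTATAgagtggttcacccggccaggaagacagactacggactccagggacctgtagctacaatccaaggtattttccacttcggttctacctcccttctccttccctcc
Asl (chr12:32295658-32295957, plus strand): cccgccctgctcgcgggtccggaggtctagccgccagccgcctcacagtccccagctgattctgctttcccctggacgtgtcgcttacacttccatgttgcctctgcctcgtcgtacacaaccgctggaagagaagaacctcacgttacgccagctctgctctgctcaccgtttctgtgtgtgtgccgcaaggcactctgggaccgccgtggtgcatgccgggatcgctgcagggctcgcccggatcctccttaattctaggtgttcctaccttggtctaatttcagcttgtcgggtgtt

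The windows were searched on both strands for short motifs of factors known in liver, and the share of all 33469 promoter windows that held each motif was counted. The *Cps1* window held CAAAGTCC, a hepatocyte nuclear factor 4 type word found in 1.40% of windows, as its reverse complement from position -70. The *Otc* window held the related word CAAAGGTC, found in 1.11% of windows, as its reverse complement from position -16. The *Ass1* window held the TATA box letters TATAAA, found in 14.2% of windows, as their reverse complement from position -60 relative to the gene start. The *Asl* window held none of the motifs searched. The cyclic AMP response element TGACGTCA (1.83% of windows), the C/EBP word TTGCGCAA (0.17%), the glucocorticoid receptor core TGTTCT (20.7%), the E-box CACGTG (6.42%) and the D-box TTATGTAA (0.893%) were in no window of the 7 genes. The core TGACG, part of the cyclic AMP response element and present in 21.2% of windows, was found in *Nags* and *Glul*, and CCAAT, present in 37.5%, was found in both windows of *Glul*. The words for hepatocyte nuclear factor 4 were added after the windows had been read. A match is a description of letters and not a measured binding site. GC content was 39.3% in the *Cps1* window, 46.7% in *Otc*, 51.0% in *Ass1* and 60.3% in *Asl*, with a median of 51.7% over all windows.

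Abundance was given as TPM, a measure corrected for gene length and sequencing depth, so that levels can be compared between genes. The aligned bases implied by the tables ranged from 3.50 Gb in sevoflurane 0 h to 5.57 Gb in desflurane 6 h. Mean coverage of the 8 genes was between 81.5-fold (*Nags*, sevoflurane 0 h) and 7199-fold (*Arg1*, sevoflurane 6 h). Without read counts in the tables, counting intervals were not computed. The defining genes of hepatocytes (*Alb*, *Apoa1*, *Ttr*, *Tf*, *Fgb*, *Serpina1*) summed to a TPM between 93036 and 104949 in the 4 libraries. Among them *Apoa1*, an apolipoprotein, was 1.84-fold higher with sevoflurane and passed the test of the change common to both agents (limma, Benjamini-Hochberg adjusted p = 0.0145), and the other 5 did not. None of the listed markers of Kupffer, endothelial, stellate, bile duct, pancreatic acinar or intestinal cells passed a rule of change with either agent, and those of kidney summed to a TPM of at most 0.0282.

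The summed TPM of the 8 genes was 3705 in sevoflurane 0 h and 3583 in desflurane 0 h, and 6517 in sevoflurane 6 h and 6093 in desflurane 6 h. It took 0.484% and 0.454% of the TPM of named genes at 0 h and 0.836% and 0.790% at 6 h. The sum of the cytosolic enzymes *Ass1*, *Asl* and *Arg1* was 1548 at 0 h and 3830 at 6 h for sevoflurane and 1597 and 3738 for desflurane, whereas that of the mitochondrial *Cps1* and *Otc* was 1486 and 1995 for sevoflurane and 1248 and 1573 for desflurane. A gene was called higher or lower with an agent where the larger TPM was above 2 and more than 2 times the smaller.

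**Figure D1:**
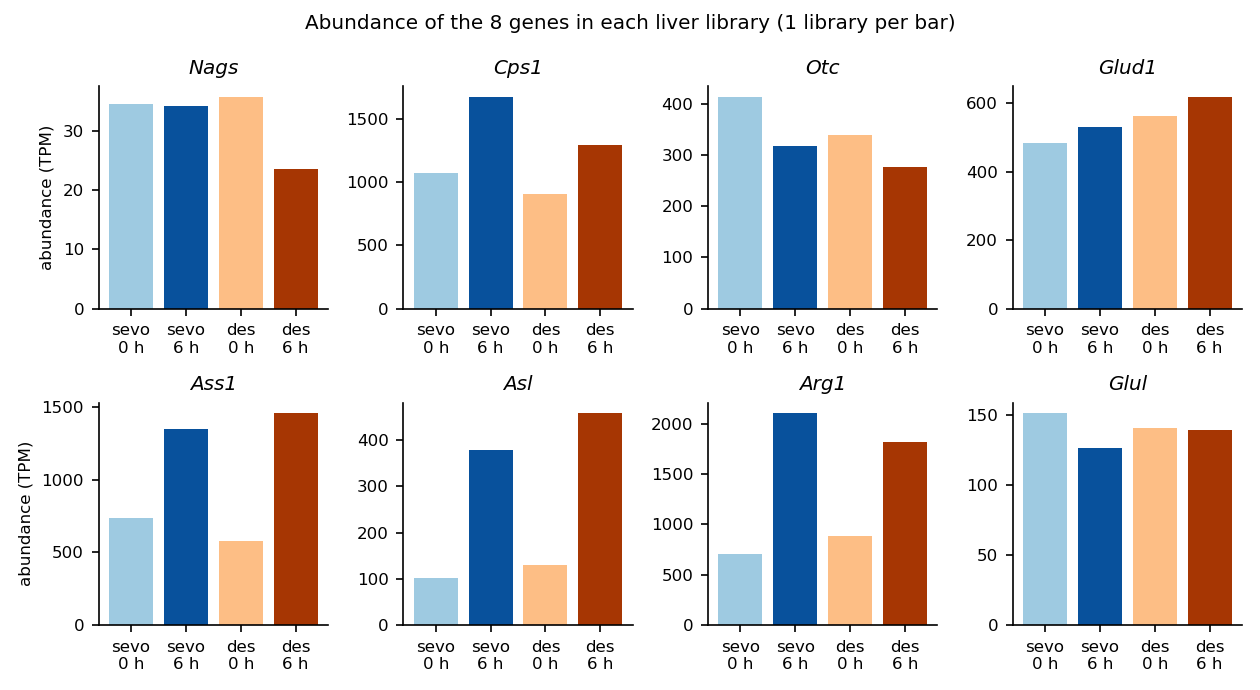
Abundance of the 8 genes (TPM, linear axes from 0) at 0 h and 6 h of each agent, with 1 library per bar and no error bars. The 6 h bars of *Cps1*, *Ass1*, *Asl* and *Arg1* stand above both 0 h bars, as for 23.0% of all genes tested. Those of *Nags*, *Otc* and *Glul* stand below both, as for 28.0%, and those of *Glud1* overlap. The nearest bars of 6 h and 0 h are 34.2 and 34.6 for *Nags* and 139 and 141 for *Glul*.

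With sevoflurane, 2 of the 8 genes (*Asl* and *Arg1*) were called higher, where 5.04% of the 8270 genes above the TPM minimum were called higher, and 0 were called lower, against 3.71%. With desflurane, 3 of the 8 (*Ass1*, *Asl* and *Arg1*) were called higher, against 4.10% of 8372 genes, and 0 lower, against 5.55%. The same rule called 0 of the 8 between the controls, where it called 2.76% of genes in either direction, and 0 between the anesthetized rats, where it called 3.99%. A limma fit over 8024 genes, with the agent as a block, tested the change that both agents shared. By this test 4 of the 8 genes (*Cps1*, *Ass1*, *Asl* and *Arg1*) rose and 0 fell, where 8.62% of all genes tested passed in either direction at an adjusted p below 0.05. The fit had 1 residual degree of freedom and borrowed its spread from all genes. Without the filter on low genes 1 of the 8 (*Asl*) passed, among 25 of 13629 genes. By rank, 4 of the 8 had both 6 h libraries above both 0 h libraries, as did 23.0% of the genes tested, and 3 had both below, as did 28.0%. On log2(TPM + 1) the 8 genes had a median change of 0.39 for sevoflurane and 0.33 for desflurane, beside 0.05 and -0.10 over the genes tested. The 2 comparisons have no library in common.

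Among the mitochondrial genes, *Nags* (chromosome 10, 90085559 to 90089693, plus strand; all gene positions are on rn6, as deposited) had the lowest level of the 8. Its TPM was 34.6 in sevoflurane 0 h, 34.2 in sevoflurane 6 h, 35.8 in desflurane 0 h and 23.6 in desflurane 6 h. The library of desflurane 6 h stood below the other 3, which lay within a narrow range. The ratio of 6 h to 0 h was 0.989 for sevoflurane and 0.659 for desflurane, and the common log2 change of -0.30 (SE 0.18) did not pass (limma, Benjamini-Hochberg adjusted p = 0.412).

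*Cps1* (chromosome 9, 74113437 to 74235368, plus strand), whose product is the most abundant protein of liver mitochondria, was the most abundant of the 8 transcripts at 0 h. Its TPM was 1072 in sevoflurane 0 h, 1677 in sevoflurane 6 h, 909 in desflurane 0 h and 1298 in desflurane 6 h. Both anesthetized libraries were above both controls. Against the control of the same agent, *Cps1* was 1.56-fold higher with sevoflurane and 1.43-fold higher with desflurane, short of the size rule. Against the sevoflurane control, the log2 change of desflurane 6 h was 0.28. The common log2 change of 0.58 (SE 0.11) passed the test (limma, Benjamini-Hochberg adjusted p = 0.00528). The call was lost without the agent term (limma, adjusted p = 0.0731). With 1 library left out and no agent term, the limma adjusted p was 0.155 without sevoflurane 0 h, 0.215 without sevoflurane 6 h, 0.314 without desflurane 0 h and 0.0260 without desflurane 6 h.

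*Otc* (chromosome X, 13524804 to 13601074, minus strand), whose gene lies on the X chromosome in mammals, differed in the other direction. Its TPM was 414 in sevoflurane 0 h, 318 in sevoflurane 6 h, 339 in desflurane 0 h and 276 in desflurane 6 h. The anesthetized libraries were below both controls, but sevoflurane 6 h and desflurane 0 h lay close together. The ratio of 6 h to 0 h was 0.769 for sevoflurane and 0.814 for desflurane, and the ratio of the desflurane to the sevoflurane control was 0.818. The common log2 change of -0.34 (SE 0.12) did not pass (limma, Benjamini-Hochberg adjusted p = 0.116).

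*Glud1* (chromosome 16, 10661911 to 10695555, plus strand) serves glutamate metabolism in the same compartment. Its TPM was 484 in sevoflurane 0 h, 531 in sevoflurane 6 h, 562 in desflurane 0 h and 619 in desflurane 6 h. The groups overlapped, since desflurane 0 h was above sevoflurane 6 h. The ratios of 6 h to 0 h were 1.10 with sevoflurane and 1.10 with desflurane, and the difference between the controls (1.16) was larger than either (limma, Benjamini-Hochberg adjusted p = 0.591 for the common change).

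The cytosolic enzymes carried the largest changes of the 8 genes. *Asl* (chromosome 12, 30160998 to 30178346, plus strand), which cleaves argininosuccinate, had the lowest level of the cytosolic enzymes in every library and the largest relative change with both agents. Its TPM was 101 in sevoflurane 0 h, 380 in sevoflurane 6 h, 130 in desflurane 0 h and 459 in desflurane 6 h. The lower of the anesthetized libraries was far above the higher of the controls. *Asl* was 3.76-fold higher with sevoflurane and 3.52-fold higher with desflurane, and 71 of the 8024 genes tested had a larger log2 increase with sevoflurane and 85 with desflurane. The common log2 change was 1.85 (SE 0.12; limma, Benjamini-Hochberg adjusted p = 1.62e-06).

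*Arg1* (chromosome 1, 21525421 to 21537870, plus strand), the arginase that forms urea, became the most abundant of the 8 transcripts at 6 h with both agents. Its TPM was 708 in sevoflurane 0 h, 2104 in sevoflurane 6 h, 886 in desflurane 0 h and 1822 in desflurane 6 h. It was 2.97-fold higher with sevoflurane and 2.06-fold higher with desflurane, and the desflurane control was 1.25 times the sevoflurane control. The common log2 change was 1.305 (SE 0.13; limma, Benjamini-Hochberg adjusted p = 4.41e-05).

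*Ass1* (chromosome 3, 10327433 to 10369126, minus strand) encodes the enzyme that brings the second nitrogen of urea into the cycle as aspartate. Its TPM was 739 in sevoflurane 0 h, 1346 in sevoflurane 6 h, 580 in desflurane 0 h and 1457 in desflurane 6 h. The anesthetized libraries lay close to each other and above both controls, and the controls differed more. *Ass1* was 1.82-fold higher with sevoflurane, short of the size rule, and 2.51-fold higher with desflurane, which was past it. With the controls of the agents exchanged, *Ass1* was called with sevoflurane and not with desflurane. The common log2 change was 1.095 (SE 0.13; limma, Benjamini-Hochberg adjusted p = 0.000129). Whether the agents differ in their effect on *Ass1* or any other of the 8 genes was not tested, since each agent had 1 library per time.

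**Figure D2:**
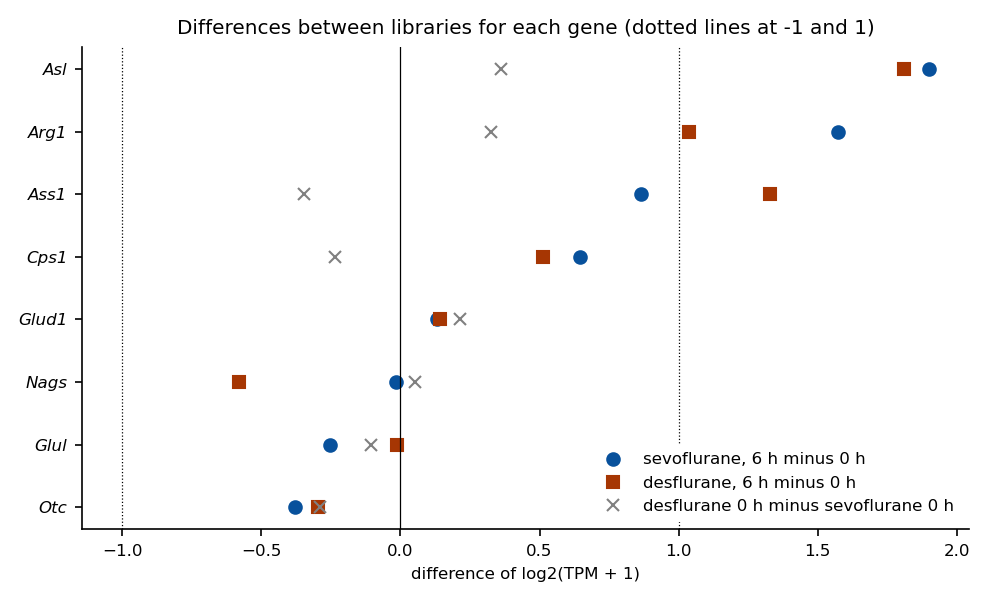
Differences of log2(TPM + 1) for each gene, as circles for sevoflurane 6 h minus 0 h, squares for desflurane 6 h minus 0 h and crosses for desflurane 0 h minus sevoflurane 0 h, with 1 library on each side. *Asl* reached 1.90 and 1.81, while the crosses of the 8 genes lay between -0.35 and 0.36.

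*Glul* (chromosome 13, 71331052 to 71340207, plus strand), the perivenous enzyme that fixes ammonia into glutamine, stayed within a narrow range. Its TPM was 152 in sevoflurane 0 h, 127 in sevoflurane 6 h, 141 in desflurane 0 h and 139 in desflurane 6 h. The ratio of 6 h to 0 h was 0.837 with sevoflurane and 0.990 with desflurane. The common log2 change of -0.13 (SE 0.13) did not pass (limma, Benjamini-Hochberg adjusted p = 0.666). With desflurane its log2 change was -0.01, which became 0.09 after median-of-ratios scaling and 0.05 when *Rn7sl1*, an abundant small RNA, was taken out of the total.

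Ratios within a library do not depend on the scaling between libraries, and they describe the make-up of the cycle. The summed TPM of *Ass1*, *Asl* and *Arg1* over that of *Cps1* and *Otc* was 1.04 in sevoflurane 0 h and 1.28 in desflurane 0 h, and 1.92 in sevoflurane 6 h and 2.38 in desflurane 6 h. The share of *Otc* among these 5 transcripts was 13.7% and 11.9% in the controls and 5.47% and 5.19% at 6 h. *Asl* took 3.33% and 4.57% in the controls and 6.52% and 8.63% at 6 h. *Arg1* took 23.3% in sevoflurane 0 h and 36.1% in sevoflurane 6 h, but 31.2% in desflurane 0 h and 34.3% in desflurane 6 h, so the controls differed more than the desflurane pair. *Ass1* took 24.4% in sevoflurane 0 h and 23.1% in sevoflurane 6 h, but 20.4% in desflurane 0 h and 27.4% in desflurane 6 h, so its share differed in opposite directions with the agents. *Cps1* took a smaller share at 6 h in spite of its higher level, 28.8% against 35.3% with sevoflurane and 24.4% against 32.0% with desflurane. The ratio of *Cps1* to *Nags* was 31.0 and 25.4 at 0 h and 49.0 and 54.9 at 6 h. No test was run on these shares.

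**Figure D3:**
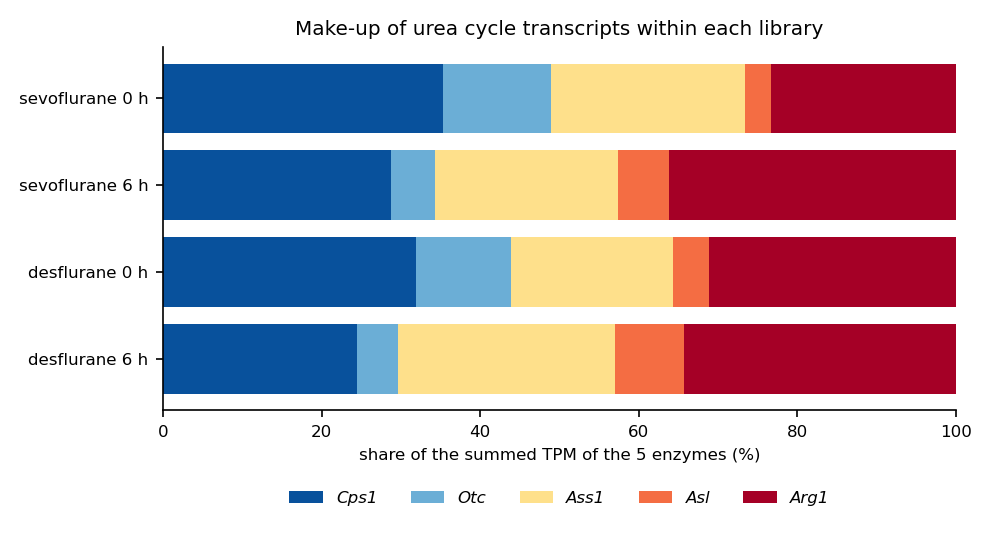
Share of each of *Cps1*, *Otc*, *Ass1*, *Asl* and *Arg1* in their summed TPM (%) for the 4 libraries. The share of *Otc* was 13.7% in sevoflurane 0 h and 11.9% in desflurane 0 h, and 5.47% and 5.19% in the 6 h libraries of the same agents.

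The order of the levels changed between 0 h and 6 h. In the controls *Cps1* came first and *Asl* ranked just above *Nags*, whereas at 6 h *Arg1* came first and *Asl* had passed both *Glul* and *Otc*. In every library *Glud1* followed the 3 most abundant genes and *Nags* came last. *Ass1* and *Arg1* exchanged places between the controls and *Ass1* and *Cps1* exchanged places between the anesthetized libraries, so the order within these pairs did not hold across libraries of the same time. Among 1205 genes whose mean TPM reached 50, those whose profile over the 4 libraries lay nearest to that of *Cps1* included *Lrpprc* and *Abcc2*, at Euclidean distances of 0.0844 and 0.166 on log2(TPM + 1) centred per gene. Those nearest to *Glul* were *Ndufa8*, *Vdac1* and *Cox8a*, at distances of 0.0380, 0.0391 and 0.0420. With 4 libraries such likeness is a description only.

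Genes that act around the cycle were examined in 8 lists, of which 130 genes were listed in the tables. Of the 100 with a TPM above 2 in a sevoflurane library, 19 were called higher and 6 lower with sevoflurane, beside 5.04% and 3.71% of all genes. Of the 101 above 2 with desflurane, 17 were called higher and 4 lower, beside 4.10% and 5.55%, and 15 genes were called higher and 1 lower with both agents. By the common change, 23 of the 100 genes tested rose and 7 fell, where 8.62% of all genes tested passed in either direction. These shares of all genes are the background for each of the lists as well. The shares by size count only genes above the TPM minimum, so they compare with the listed genes above it in a library. Those were 11 of 17 transporters, 3 of 7 channels, 21 of 24 glutamine and transamination genes and 19 of 20 catabolism genes. They were 11 of 17 users of arginine or ornithine, 11 of 11 carbamoyl phosphate genes, 20 of 21 regulators and 6 of 13 beta-catenin genes. The lists were drawn up with earlier results of these data known.

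Transporters that feed the cycle were higher at 6 h wherever they were called. Of 17 listed, 5 were called higher with sevoflurane and 5 with desflurane, 0 were called lower, and by the common change 8 of 11 tested rose and 0 fell. *Slc25a15*, the mitochondrial carrier that exchanges ornithine and citrulline, had a TPM of 110 in sevoflurane 0 h, 282 in sevoflurane 6 h, 114 in desflurane 0 h and 345 in desflurane 6 h. Both anesthetized libraries were well above controls that hardly differed (limma, Benjamini-Hochberg adjusted p = 1.39e-05). *Slc7a2*, a carrier of arginine, ornithine and lysine, stood at 52.1 and 235 in the 0 h and 6 h libraries of sevoflurane and at 63.6 and 210 in those of desflurane. *Slc38a2*, a sodium-coupled carrier of neutral amino acids, went from 14.7 to 61.8 and from 18.03 to 116. The mitochondrial carrier of basic amino acids *Slc25a29* went from 0.59 to 2.49 and from 0.77 to 10.9, partly near the TPM minimum. The aspartate and glutamate carrier *Slc25a13* was not analysed here.

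Among 7 ammonia and urea channels, *Aqp8*, an aquaporin that also conducts ammonia, was the 1 gene called, and it was lower with both agents. Its TPM was 108 in sevoflurane 0 h, 36.2 in sevoflurane 6 h, 98.4 in desflurane 0 h and 42.1 in desflurane 6 h. Its common log2 change was -1.38 (SE 0.15; limma, Benjamini-Hochberg adjusted p = 7.90e-05).

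Of the 24 genes of glutamine, glutamate, aspartate and transamination, sevoflurane called 2 higher and 1 lower and desflurane 1 higher and 0 lower. *Got1*, the cytosolic aminotransferase that can supply aspartate to *Ass1*, was 11.0-fold higher with sevoflurane and 13.3-fold higher with desflurane. *Gls2*, the liver glutaminase that delivers ammonia next to *Cps1*, had a TPM of 89.7 in sevoflurane 0 h, 107 in sevoflurane 6 h, 64.4 in desflurane 0 h and 74.2 in desflurane 6 h, with overlapping groups (limma, Benjamini-Hochberg adjusted p = 0.415). Of 20 genes of ammonia-releasing amino acid catabolism, sevoflurane called 5 higher and 2 lower and desflurane 3 higher and 0 lower. *Sds*, serine dehydratase, was 131-fold higher with sevoflurane and 36.1-fold higher with desflurane, and its controls differed by 2.28-fold. *Tat*, tyrosine aminotransferase, was 4.29-fold and 5.22-fold higher, and *Tdo2*, tryptophan dioxygenase, was 3.13-fold and 4.96-fold higher. By the common change, 2 of the 21 genes tested in the first of these lists rose and 0 fell, and 5 of 19 rose and 2 fell in the second, beside the 8.62% of all genes that passed in either direction. The count in the first list is near that background.

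Of 17 genes that use arginine or ornithine, 2 were called higher with each agent, 1 was called lower with sevoflurane and 0 with desflurane. By the common change 2 of 11 tested rose and 1 fell. *Oat*, ornithine aminotransferase, had a TPM of 139 in sevoflurane 0 h, 402 in sevoflurane 6 h, 108 in desflurane 0 h and 305 in desflurane 6 h. *Azin1*, which stabilizes ornithine decarboxylase, went from 9.55 to 23.3 and from 10.1 to 20.6. Among 11 genes of carbamoyl phosphate and bicarbonate, 1 was called lower with sevoflurane and 0 with desflurane, and *Ca5a*, the carbonic anhydrase that provides bicarbonate for *Cps1*, had a TPM of 17.99 at 0 h and 20.3 at 6 h of sevoflurane, and of 16.5 at 0 h and 15.0 at 6 h of desflurane.

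Of 21 regulators known to act on urea cycle genes, sevoflurane called 5 higher and 0 lower and desflurane 6 higher and 2 lower, and by the common change 6 of 20 tested rose and 2 fell. The 5 called higher with both agents were *Klf15*, *Ppargc1a*, *Foxo1*, *Ppara* and *Sik1*, transcription regulators and a kinase of the fasting response. Other regulators in the list went the other way. The 2 called lower with desflurane were *Foxa2* and *Creb1*, and the 2 that fell by the common change were *Foxa2* and *Nr3c1*, the glucocorticoid receptor. *Klf15* had a TPM of 12.7 in sevoflurane 0 h, 49.7 in sevoflurane 6 h, 14.3 in desflurane 0 h and 39.9 in desflurane 6 h. The coactivator *Ppargc1a* was low in the controls (0.0255 and 0.412) and at 2.48 and 9.09 in the anesthetized libraries. *Ppara* went from 9.70 to 32.1 and from 12.7 to 43.6, *Sik1* from 4.83 to 12.6 and from 3.55 to 21.3, and *Foxo1* from 2.45 to 5.27 and from 3.06 to 7.44. *Gcgr*, the glucagon receptor, stood at 19.8 and 24.1 with sevoflurane and at 24.8 and 22.0 with desflurane, and its common log2 change of 0.05 (SE 0.18) did not pass (limma, Benjamini-Hochberg adjusted p = 0.926).

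**Figure D4:**
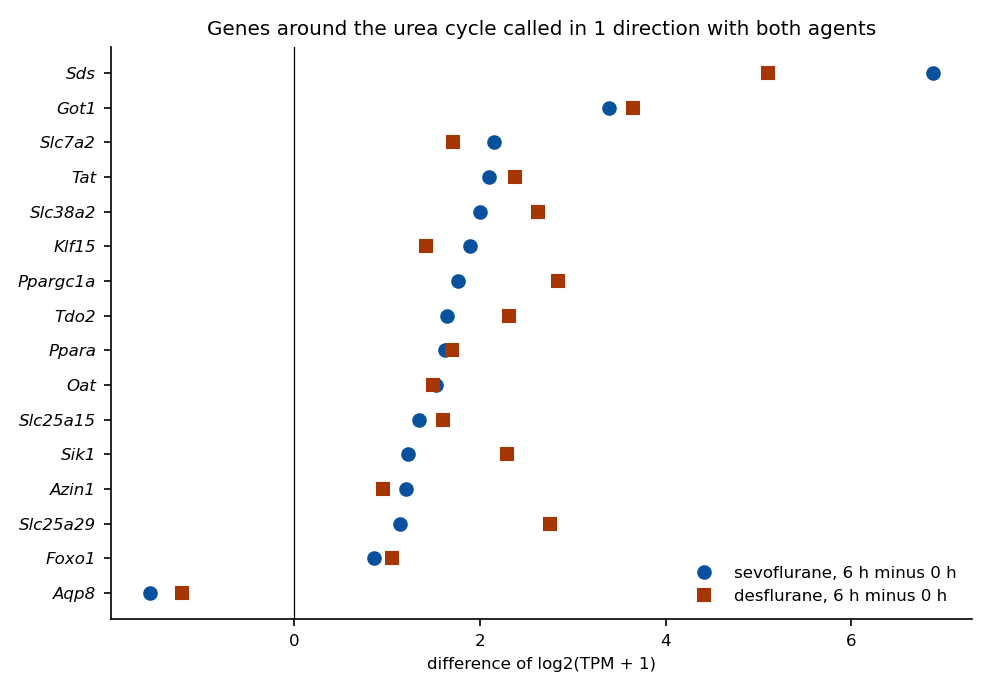
Differences of log2(TPM + 1), 6 h minus 0 h, for the 16 genes of the pathway and zonation lists called in the same direction with sevoflurane (circles) and desflurane (squares), with 1 library on each side. *Aqp8* lay below 0 with both agents and the other 15 genes lay above 0.

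Markers of the zones of the liver lobule were set beside these values, with the same shares of all genes as background. A TPM above 2 in a library was reached by 8 of the 10 pericentral and 9 of the 10 periportal markers. Of 10 pericentral markers, sevoflurane called 2 higher and 0 lower and desflurane 3 higher and 1 lower, and by the common change 5 of 7 tested rose and 0 fell. *Cyp2e1*, a pericentral cytochrome P450, had a TPM of 543 in sevoflurane 0 h, 1015 in sevoflurane 6 h, 610 in desflurane 0 h and 1364 in desflurane 6 h. The pericentral marker called lower was *Tbx3*, whose TPM was 2.04 in desflurane 0 h and 0.368 in desflurane 6 h. *Axin2*, below a TPM of 2 in every library, had ratios of 6 h to 0 h of 0.430 (sevoflurane) and 0.268 (desflurane). Both *Tbx3* and *Axin2* were outside the 7 tested, and *Glul* was not among the 10. Of 10 periportal markers, sevoflurane called 2 higher and 1 lower and desflurane 1 higher and 1 lower, and by the common change 2 of 9 tested rose and 1 fell. Of 13 genes of the beta-catenin pathway, which maintains pericentral expression, 6 had a TPM above 2 in a library. Genes below that level could not be called. Of the 13, 0 were called with sevoflurane and 1 was called lower with desflurane. By the common change 0 of 5 tested passed. The 5 markers of red blood cells also moved with the groups, with a summed TPM of 451 and 728 at 0 h and 1215 and 1342 at 6 h, and 3 of the 5 were called higher with sevoflurane and 0 with desflurane. By the common change 3 of the 3 tested rose. The part of red blood cells or of lobule zones in the changes of the 8 genes was not tested.

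Each of the 8 genes was also overlapped, on its own strand, by 1 locus that the authors' assembler built from the same reads in each library. The ends of the locus could differ from those of the gene. The locus of *Asl* in sevoflurane 6 h began inside the gene, at 30165732, as did that of *Cps1* in desflurane 6 h, at 74123929. That of *Ass1* ran past the gene in every library. This locus is not an independent reading of the level. For *Glud1* its span and TPM equalled those of the named gene in every library. The TPM of this locus was between 82.6% and 119% of the TPM of the named gene in the 32 pairs, with a median of 100%. From the assembled loci, 2 of the 8 genes were called higher with sevoflurane and 3 with desflurane, and 0 were called lower, as from the named genes.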

How the data were processed

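Liver total RNA (RNeasy Midi kit) was sequenced from stranded TruSeq Gold libraries, 1 for each of the 4 groups, which were taken from the sample labels. The submitters' processing notes name HISAT2, SAMtools, StringTie and the build rn6, without versions, and no annotation is named in the sources used here. The deposited tables hold TPM, FPKM and mean coverage per gene as computed by the authors, for named genes and for assembled loci. In the deposited TPM column, here treated as a score in TPM units, the assembled loci alone sum to 1000000 and the named genes hold the same reads again. Levels are therefore on a scale of the assembled loci. Named genes were used, rows of one symbol summed.

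A size rule (TPM above 2, ratio above 2) was applied to pairs of libraries, without a test. A change shared by the agents was tested on log2(TPM + 1) with limma 3.58.1 in R 4.3.3 (moderated test with trend, Benjamini-Hochberg adjustment, mean TPM of at least 2, agent as a block), which was tested on simulated data. The labels do not say how many animals stand behind a library, so p-values cannot be read as a measure of the spread between animals. With 1 residual degree of freedom, they also rest on a spread borrowed from other genes. Coverage gives the depth behind each gene, and no read counts were used.

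The 8 genes and the lists around them were chosen with earlier results of these data known. Named genes were the 8, *Ca5a*, *Slc25a15*, *Slc25a13*, *Gls2*, *Oat*, *Klf15*, *Gcgr* and *Cyp2e1*, list genes called with both agents in 1 direction, and the 3 genes most alike in profile to *Cps1* and to *Glul*. Of these, 1 gene is not reported here. Alternatives were other ratios (1.5 and 3), a TPM minimum of 5, scaling by the median of ratios, removal of *Rn7sl1*, FPKM, the highest row of a symbol, the other agent's control, a pseudocount of 0.1, no filter, no agent term and leaving out each library. Use of the assembled loci was added after seeing the data.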

Additional observations from a re-analysis of the deposited data

Results flagged for a closer look

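For 2 genes of the lists around the cycle, the libraries moved in opposite directions with the agents, with 1 library per group and without a test of the difference. *Ca5a*, the mitochondrial carbonic anhydrase, had a log2(TPM + 1) change of 0.17 with sevoflurane and -0.14 with desflurane. *Gcgr*, the glucagon receptor, had a change of 0.27 with sevoflurane and -0.16 with desflurane. None of the 4 values passed the size rule. The controls differed by -0.11 for *Ca5a* and by 0.31 for *Gcgr*.
The share of *Ass1* among the 5 cycle enzymes (*Cps1*, *Otc*, *Ass1*, *Asl* and *Arg1*) also differed in opposite directions, by -1.25 percentage points from 0 h to 6 h of sevoflurane and by 7.04 percentage points with desflurane, again without a test.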

How the results depend on the processing

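With a ratio above 1.5, sevoflurane called 4 of the 8 genes (*Cps1*, *Ass1*, *Asl* and *Arg1*), and with a ratio above 3 it called 1 (*Asl*), as did desflurane with a ratio above 3 (1, *Asl*). With a ratio above 1.5 desflurane called 4, of which *Nags* was lower. Against the other agent's control, 3 were called with sevoflurane and 2 with desflurane. The other alternatives left each agent's count as it was. In the limma test of the common change, 1 of the 8 passed without the filter on low values (*Asl*, adjusted p = 0.0471), where *Arg1* (0.110), *Ass1* (0.127) and *Cps1* (0.162) did not. Over all genes, 692 were called, 488 without the agent term, 25 without the filter, and 163 without sevoflurane 0 h, 591 without sevoflurane 6 h, 283 without desflurane 0 h and 411 without desflurane 6 h. Without the agent term 3 of the 8 passed and *Cps1* did not, and leaving out 1 library gave 3 to 4 of the 8, and *Ass1*, *Asl* and *Arg1* passed each time. Such fits have no agent term, and the lone library of an arm is assumed to vary like the others. The causes were not tested. Of 112 recomputed log2 changes (8 genes, 2 agents, 7 alternatives), 109 kept their sign, and the 3 others belonged to *Glul* with desflurane (0.09 and 0.05, from -0.01) and to *Glud1* with sevoflurane against the other control (-0.08, from 0.13). The agent block pairs 0 h with 6 h within each agent, and the labels give no replicate numbers for any other pairing. With 1 library per group, no size call has a replicate error.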

Other observations

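In sevoflurane 0 h, and in no other library, 2 further assembled loci lay over *Cps1* off its own strand. The first, without an assigned strand, spanned 575 bases on chromosome 9 from 74116814 to 74117388 (rn6) at a TPM of 2.65 and a mean coverage of 6.26. The second, on the minus strand, spanned 2370 bases from 74134709 to 74137078 at a TPM of 3.08 and a mean coverage of 7.24. *Cps1* itself stood at a TPM of 1072 in that library, the one with the fewest aligned bases (3.50 Gb).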
